A study of Mus musculus with 11 samples.

Results

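RNA was sequenced from single fetal livers of 11 mouse embryos at embryonic stage E15.5, untreated, from 4 genotypes on a C57BL/6N background. The comparison described here takes 5 of these 11 livers. Its members were chosen by the genotype in the labels: 3 livers labelled Casp8 TNFR1 dKO, which lack both caspase-8 and the TNF receptor TNFR1 (gene *Tnfrsf1a*), and 2 livers labelled TNFR1KO, which lack TNFR1 and carry caspase-8. Both sides therefore lack TNFR1, and what separates them is caspase-8, so the comparison asks what changes in the fetal liver when caspase-8 is lost while TNFR1 cannot signal. The other genotypes are 3 WT livers and 3 livers labelled Casp8 MLKL dKO, which lack caspase-8 and the necroptosis effector MLKL but carry TNFR1. The null alleles are carried in all cells, so blood cells, hepatoblasts and vessels of a liver, and the embryo around it, have the same genotype. The single-knockout side has only 2 livers. The p-values measure the spread between livers within genotypes, estimated over all 11 livers of the 4 genotypes. Whether embryos shared a litter is not stated in the sources used here, so litters could not be taken into account.

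Caspase-8 is a protease that starts apoptosis downstream of death receptors and that also holds back necroptosis, a lytic form of cell death. In necroptosis the kinases RIPK1 and RIPK3, or the nucleic acid sensor ZBP1 with RIPK3, lead to phosphorylation of MLKL, which breaks the plasma membrane. TNFR1 is one receptor that can start this, but Toll-like receptors, interferons and ZBP1 can feed the same machinery. Interferons act through receptors, the kinases JAK1 and TYK2 and transcription factors such as IRF9, which bind a short element in the promoters of interferon-stimulated genes (ISGs). At this stage the liver is the main blood-forming organ, so its RNA comes from erythroid precursors, hepatoblasts, resident macrophages (Kupffer cells), other blood cells and endothelium.

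Levels are given as CPM, the counts of a gene relative to the library total after scaling of the libraries by the TMM method, and differences as log2 fold changes of Casp8 TNFR1 dKO over TNFR1KO with their standard errors (SE). Calls were made with edgeR's quasi-likelihood test, fitted to all 11 livers, where the p adjusted by Benjamini and Hochberg's method was under 0.05. Each SE was derived from this test, as the absolute log2 fold change over the square root of the F statistic. It is not a separately fitted standard error. CPM are not divided by gene length, so levels of different genes are not compared with each other. The 11 libraries held 23129212 to 35819339 counted reads, and the 5 compared here 23194155 to 35819339. In RNA of a whole organ, fewer cells of a type and less RNA per cell of that type cannot be told apart.

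The targeted genes were examined first. *Casp8* (GRCm38 chromosome 1, 58795374 to 58847503) measured 33.8 and 30.5 CPM in the TNFR1KO livers and 13.1, 11.5 and 21.9 CPM in the Casp8 TNFR1 dKO livers. All 3 double-knockout livers lay below both TNFR1KO livers, but each kept reads on the gene, so a count taken over the full gene is no check of the deletion on its own. Its log2 fold change was -1.06 (SE 0.26, adjusted p = 0.0742), and it was -1.39 (SE 0.16, adjusted p = 0.00150) without replicate 3. *Tnfrsf1a* was at 49.8 and 50.5 CPM and at 76.9, 75.9 and 424 CPM, and reads on this gene remained in both genotypes as well (log2 fold change 1.94, SE 0.69, adjusted p = 0.207, and 0.61 with adjusted p = 0.151 without replicate 3).

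Casp8 TNFR1 dKO replicate 3 stood apart from the rest. Across the 17243 genes tested, its log2 CPM correlated with those of the other 10 livers at 0.840 to 0.891, whereas the other 10 correlated with each other at 0.949 or more. It was the only female liver of the 11, with *Xist* expressed and the Y-linked genes at or next to 0. Its 25 striated muscle genes summed to 2318 CPM against 39.6 to 85.3 CPM in the other 10 livers, and its hemoglobin genes to 171560 CPM against 34621 to 60985. Its 15 immediate early and heat shock genes summed to 2116 CPM against 331 to 440.3, its 15 hypoxia genes to 7454 against 1497 to 2769.6 and its 28 mesenchymal genes to 11845 against 2110.7 to 3107. The part of these differences in its other values was not tested, so list counts are given with and without this liver, and named genes also without it where that moved the value by over 1.5 times or changed a call. A set of 116 of the genes named in the text was compared with and without this liver. Of these, 96 moved by 1.5 times or less and 98 were called in both fits. Without it 8 of the 116 gained a call and 0 lost one. Genes named only for a call by another tool or fit are not in this set. Among them, edgeR called *Rnf31* and *Fcgr1* higher only without this liver. Genes outside the lists were chosen for calls in both fits, and list members mostly for a small p. This agreement is therefore partly built in. Without replicate 3, both sides consist of male livers. The labelled tissue was borne out in all 5 livers by hepatoblast and hepatocyte markers, whose 30 genes summed to 61496 to 111150 CPM, and by erythroid markers.

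**Figure D1:**
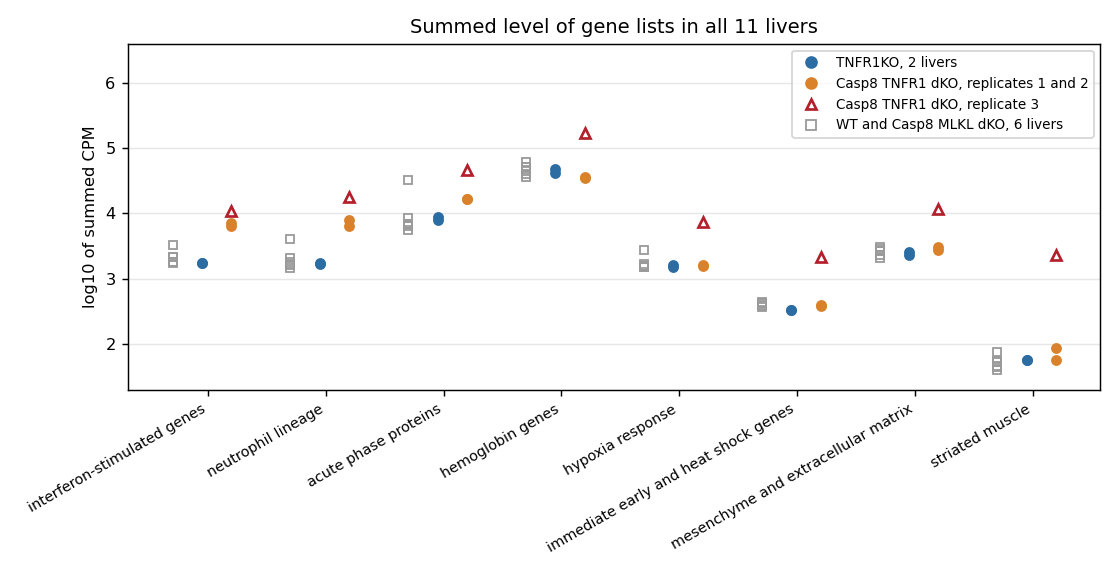
Summed level of 8 gene lists in all 11 livers, as log10 of the summed CPM. Each point is 1 liver; Casp8 TNFR1 dKO replicate 3 (triangle) lies far above all others for muscle, mesenchymal, immediate early, hypoxia and hemoglobin genes, whereas for interferon-stimulated and neutrophil genes all 3 double-knockout livers lie above the TNFR1KO livers.

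With caspase-8 lost on the TNFR1-null background, the genes called higher included most listed interferon-stimulated genes and interferon-inducible GTPases. They also included members of the MHC class I, chemokine, NF-kB and activated macrophage lists, and few genes were called lower. Of 17243 genes tested, 353 (2.05% of those tested) were called higher and 21 (0.122%) lower in Casp8 TNFR1 dKO livers. The 353 had fitted log2 fold changes of 0.61 to 9.35 with a median of 2.15, and 191 of them exceeded 2. Of these, 16 had 3 counts or fewer in each TNFR1KO liver, where a fitted fold is no bound, and the highest of the others was 8.17. The 21 lay between -4.21 and -0.70 with a median of -2.20, or of -2.003 with the 3 that were that low in Casp8 TNFR1 dKO livers set at a floor of 3 counts. Every Casp8 TNFR1 dKO liver lay above both TNFR1KO livers for all 353, an order seen in 20.5% of all genes tested, and below both for all 21, again an order seen in 20.5% of all genes. Without replicate 3, 759 genes (4.46% of 17027 tested) were called higher and 124 (0.728%) lower, and these included all 353 and all 21. Leaving that liver out thus added calls and removed none. Leaving out either TNFR1KO liver, which leaves 1 on that side assumed to vary like the other groups, reduced the calls to 29 higher and 1 lower without replicate 1 and to 37 higher and 2 lower without replicate 2. In the fit of only the 5 livers compared, 53 genes were called higher and 3 lower. Counts of list members are edgeR's and stand against 2.05% higher and 0.122% lower of all genes, or 4.46% and 0.728% without replicate 3. Where edgeR called 0 members of a list lower, limma-voom and DESeq2 also called 0 lower, except for 1 necroptosis gene by each and, by DESeq2, 1 nucleic acid sensor, 2 erythroid genes and 1 gene of adrenal, kidney and lung. In these lists 0 to 2 members were lower at an unadjusted p under 0.05, except for 7 erythroid genes.

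**Figure D2:**
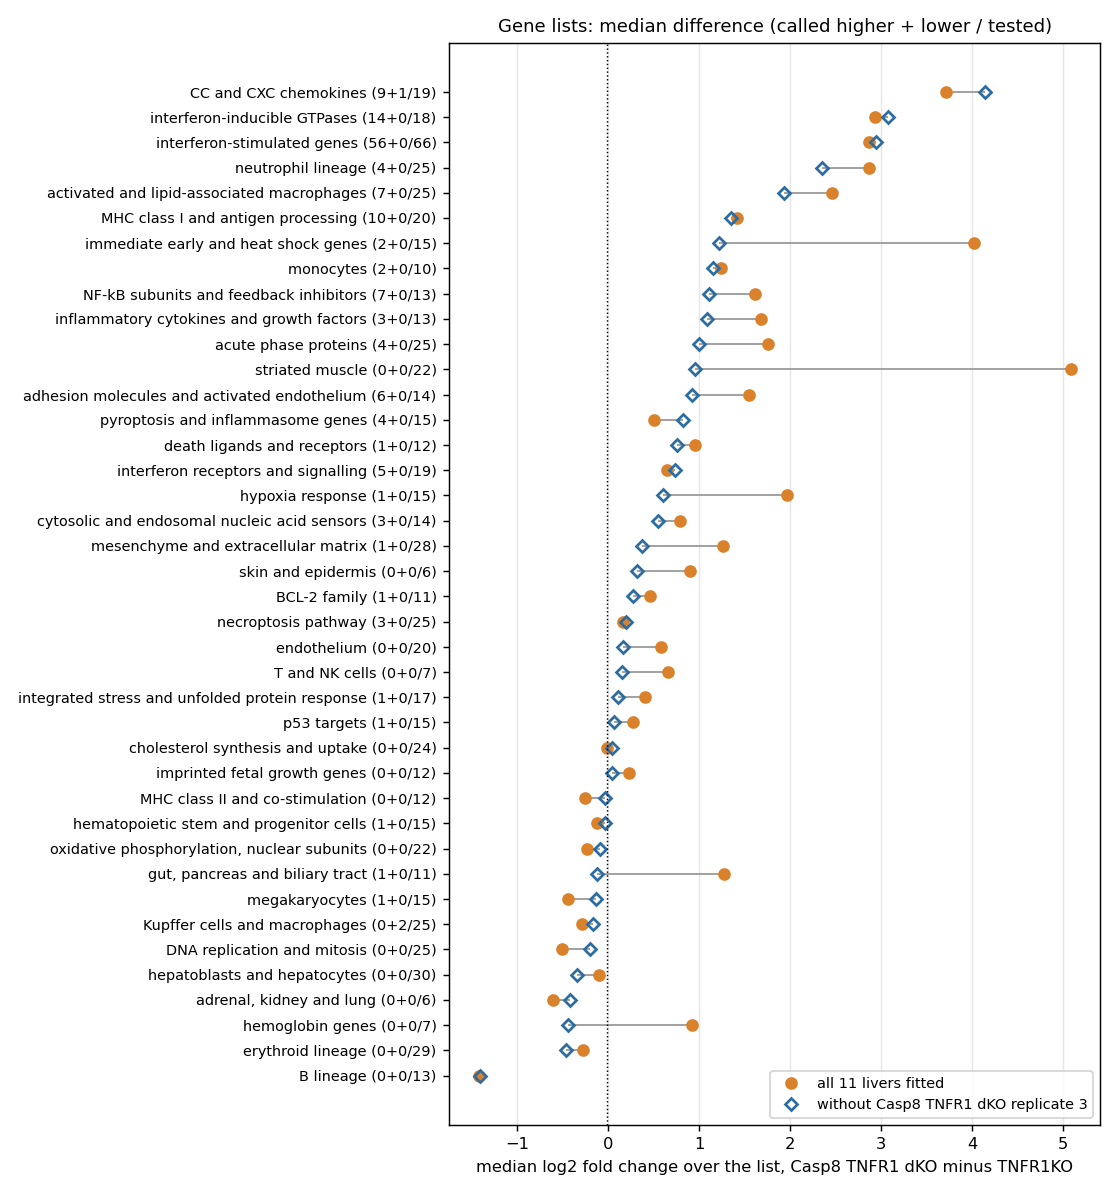
Median log2 fold change (Casp8 TNFR1 dKO minus TNFR1KO) of each gene list, with all 11 livers fitted (filled circles) and without Casp8 TNFR1 dKO replicate 3 (open diamonds); the numbers beside each name are genes called higher plus lower out of those tested, and the dotted line is the median of all genes. Chemokine and interferon lists keep their medians without the liver that stands apart, whereas striated muscle, immediate early and hypoxia lists lose most of theirs.

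The interferon response was the broadest change. Of 67 listed ISGs, 66 passed the filter, and 56 of these were called higher and 0 lower, against 2.05% of all genes. All 66 had a positive log2 fold change, from 0.22 to 7.27 without *Apol9b*, which was at 0 in both TNFR1KO livers. The median was 2.86, also with *Apol9b* at the floor of 3 counts, where the median of all genes was -0.01. Without replicate 3 the median was 2.95 and 59 were called. The summed level of the list was 1739 and 1747 CPM in the TNFR1KO livers and 7106, 6463 and 10798 CPM in the Casp8 TNFR1 dKO livers, so replicate 3 was the highest of the 3 and the other 2 were well clear of the TNFR1KO pair. The study picked some of these genes on the same livers, so the list is not independent evidence of its direction.

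*Rnf213* (chromosome 11, 119393100 to 119487418), a large ubiquitin ligase with antimicrobial activity, had the smallest p of the list. Its level was 70.4 and 75.8 CPM in TNFR1KO livers and 820.2, 697 and 641 CPM in Casp8 TNFR1 dKO livers. The groups lay far apart and replicate 3 was within reach of its group. The log2 fold change of *Rnf213* was 3.30 (SE 0.17, adjusted p = 3.33e-05), and it was 3.38 (SE 0.12, adjusted p = 5.00e-06) without replicate 3. *Bst2*, which encodes tetherin, a protein that holds budding viruses at the cell surface, went from 9.16 and 9.30 CPM to 89.6, 94.7 and 89.9 CPM, nearly the same value in all 3 double-knockout livers (log2 fold change 3.31, SE 0.24, adjusted p = 0.000246). The RNA helicase *Dhx58*, which encodes LGP2, a partner of the viral RNA sensor MDA5, measured 3.28 and 3.64 CPM against 32.2, 30.2 and 32.1 CPM, again with a tight group of 3 (log2 fold change 3.18, SE 0.25, adjusted p = 0.000247). *Parp14*, an ADP-ribosyltransferase, measured 14.9 and 17.5 CPM against 183, 142 and 143 CPM (log2 fold change 3.27, SE 0.25, adjusted p = 0.000246). The rise of *Adar*, whose product edits double-stranded RNA and keeps it from being sensed as foreign, was smaller in fold, from 58.9 and 65.4 CPM to 246, 221 and 199.8 CPM (log2 fold change 1.84, SE 0.14, adjusted p = 0.000262). Outside the list, the oligoadenylate synthetase family gene *Oas1b* rose from 0.929 and 1.25 CPM to 21.4, 19.2 and 23.4 CPM (log2 fold change 4.29, SE 0.32, adjusted p = 0.000246).

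The element that interferon-activated factors bind contains GAAA, any 2 bases and GAAA, and this core (GAAANNGAAA, with its reverse complement TTTCNNTTTC for the other strand) was looked for in promoters, taken as 250 bases before to 50 bases after the start of each gene in RefSeq (GRCm38.p6). Promoters were found for 269 of the 353 genes called higher, and 59 of these (21.9%) held the core, against 438 of 11781 (3.72%) for all genes tested and 1131 of all 32851 promoters (3.44%). Of the listed ISGs, 24 of 52 (46.2%) had a match, and of the interferon-inducible GTPases 9 of 10 (90.0%). A kappa B core (GGGAANTTCC, reverse complement GGAANTTCCC), the kind of site that NF-kB binds, was in 5 of the 269 promoters (1.86%) and in 53 of 11781 (0.450%) for all genes tested. These shares are descriptions of letters in short windows and were not tested. The 6 promoters shown belong to the ISGs with the largest log2 fold change among those called with and without replicate 3 whose promoter has the ISG core; the order is by fitted values, so the place of *Apol9b* rests on its 0 counts in both TNFR1KO livers. Each runs 5′ to 3′ along the gene, capitals mark the core on either strand, and overlapping cores run together.
Apol9b (chromosome 15, 77728822 to 77729121, plus strand): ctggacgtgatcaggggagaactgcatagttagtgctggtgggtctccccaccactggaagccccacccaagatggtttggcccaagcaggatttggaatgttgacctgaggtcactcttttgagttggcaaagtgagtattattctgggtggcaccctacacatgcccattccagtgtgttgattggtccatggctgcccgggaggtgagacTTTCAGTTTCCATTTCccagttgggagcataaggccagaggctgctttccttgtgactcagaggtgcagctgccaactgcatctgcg
Oas3 (chromosome 5, 120777610 to 120777909, minus strand): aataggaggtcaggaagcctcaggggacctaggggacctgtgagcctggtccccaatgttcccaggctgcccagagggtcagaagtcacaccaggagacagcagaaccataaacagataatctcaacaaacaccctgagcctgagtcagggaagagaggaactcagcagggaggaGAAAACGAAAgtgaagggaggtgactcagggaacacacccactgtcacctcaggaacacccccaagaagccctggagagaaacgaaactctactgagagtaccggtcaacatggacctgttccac
Isg15 (chromosome 4, 156200769 to 156201068, minus strand): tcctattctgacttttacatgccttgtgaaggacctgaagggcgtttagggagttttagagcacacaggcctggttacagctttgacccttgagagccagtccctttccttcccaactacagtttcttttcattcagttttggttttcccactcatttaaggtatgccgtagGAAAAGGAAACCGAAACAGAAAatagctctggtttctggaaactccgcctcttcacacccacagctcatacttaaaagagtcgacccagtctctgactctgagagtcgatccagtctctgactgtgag
Ifit1 (chromosome 19, 34640639 to 34640938, plus strand): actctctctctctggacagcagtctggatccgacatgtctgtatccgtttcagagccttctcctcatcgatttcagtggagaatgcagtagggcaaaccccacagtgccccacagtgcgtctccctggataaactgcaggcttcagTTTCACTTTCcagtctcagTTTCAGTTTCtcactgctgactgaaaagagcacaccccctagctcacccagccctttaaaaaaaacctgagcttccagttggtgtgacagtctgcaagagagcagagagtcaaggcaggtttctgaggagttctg
Oas1g (chromosome 5, 120887564 to 120887863, minus strand): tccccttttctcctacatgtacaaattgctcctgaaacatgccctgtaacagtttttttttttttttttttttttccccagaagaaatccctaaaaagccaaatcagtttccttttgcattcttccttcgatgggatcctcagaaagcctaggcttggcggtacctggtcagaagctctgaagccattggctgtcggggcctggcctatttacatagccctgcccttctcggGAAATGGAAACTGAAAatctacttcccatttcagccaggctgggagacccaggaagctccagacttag
Oas1a (chromosome 5, 120907476 to 120907775, minus strand): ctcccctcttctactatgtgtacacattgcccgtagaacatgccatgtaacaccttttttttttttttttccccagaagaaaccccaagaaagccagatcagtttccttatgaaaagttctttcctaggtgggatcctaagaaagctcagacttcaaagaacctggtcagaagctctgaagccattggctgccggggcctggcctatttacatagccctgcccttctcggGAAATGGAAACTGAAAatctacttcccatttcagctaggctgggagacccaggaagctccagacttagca

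*Isg15*, a ubiquitin-like modifier, has 3 overlapping cores, the first starting 78 bases before the annotated start. Its level was 2.87 and 3.61 CPM in TNFR1KO livers and 265, 269.5 and 570.1 CPM in Casp8 TNFR1 dKO livers, highest in replicate 3 (log2 fold change 6.83, SE 0.76, adjusted p = 0.00198). *Ifit1*, whose product binds viral RNA with a foreign cap, has 2 separate cores, 104 and 85 bases before the start. It measured 1.31 and 1.59 CPM against 95.5, 87.0 and 184 CPM (log2 fold change 6.39, SE 0.55, adjusted p = 0.000368). *Oas3*, which makes the messenger that activates RNase L, has 1 core 75 bases before the start and went from 0.902 and 1.29 CPM to 84.7, 90.0 and 208 CPM (log2 fold change 6.87, SE 0.97, adjusted p = 0.00660). The related *Oas1a* rose from 0.656 and 1.21 CPM to 19.8, 25.4 and 44.2 CPM and *Oas1g* from 0.109 and 0.114 CPM to 4.45, 4.92 and 9.85 CPM, and their promoters share the same stretch of 2 overlapping cores. *Apol9b* had 0 counts in both TNFR1KO livers and 15, 19 and 23 counts in the Casp8 TNFR1 dKO livers, at least 8.24-fold higher when 3 counts per library are set as the floor. Near-identical copies exist for *Apol9b*, the Oas1 genes and several GTPases, and since the authors counted uniquely mapped reads, the division of reads within such families is uncertain.

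**Figure D3:**
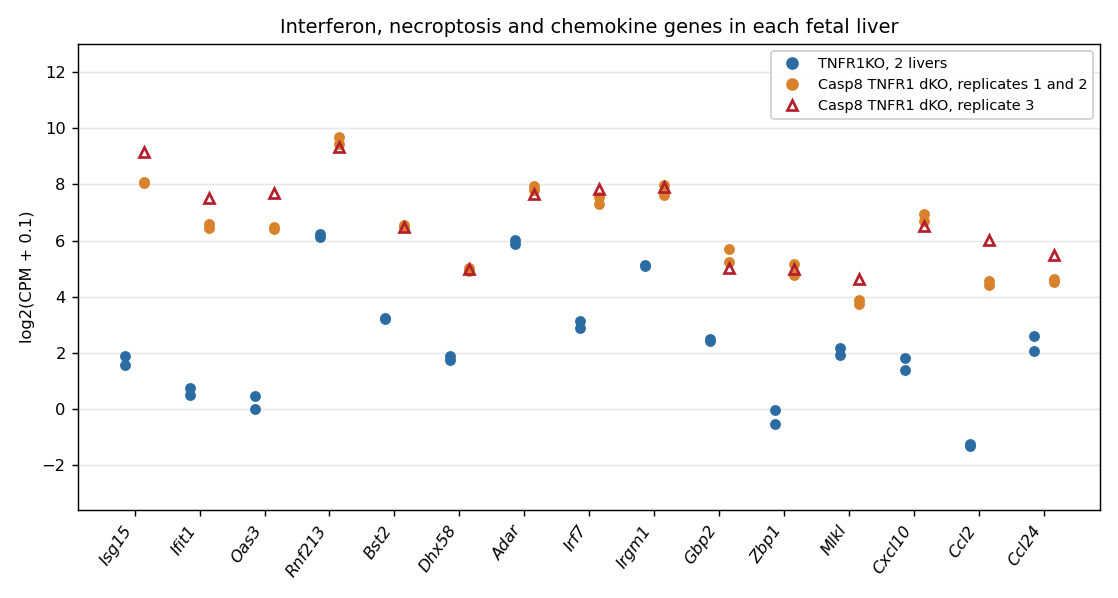
Level of 15 genes in each of the 5 livers as log2(CPM + 0.1), with TNFR1KO livers in blue, Casp8 TNFR1 dKO replicates 1 and 2 in orange and replicate 3 as a triangle. For each gene the 3 double-knockout livers lie above both TNFR1KO livers, and for *Bst2*, *Dhx58* and *Zbp1* replicate 3 lies between the other 2.

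Of 18 interferon-inducible GTPases, which disrupt the membranes around intracellular pathogens, all passed the filter, 14 were called higher and 0 lower, and the median log2 fold change was 2.93 (3.07 without replicate 3, with 16 called). *Irgm1*, a regulator of the family, measured 34.2 and 34.7 CPM against 251, 196 and 238 CPM (log2 fold change 2.73, SE 0.19, adjusted p = 0.000216). The guanylate-binding proteins rose alongside it. *Gbp3* went from 2.76 and 2.89 to 37.1, 28.4 and 22.04 CPM (log2 fold change 3.37, SE 0.34, adjusted p = 0.000971). *Gbp2* went from 5.33 and 5.54 to 52.2, 38.0 and 32.1 CPM (log2 fold change 2.91, SE 0.36, adjusted p = 0.00334). *Gbp5* went from 0.765 and 0.607 to 9.70, 8.98 and 4.84 CPM (log2 fold change 3.50, SE 0.40, adjusted p = 0.00207). *Gbp9* went from 4.78 and 4.52 to 31.3, 23.1 and 44.8 CPM (log2 fold change 2.83, SE 0.31, adjusted p = 0.00178). For *Gbp2*, *Gbp3* and *Gbp5*, replicate 3 was the lowest of the 3 double-knockout livers, the reverse of its place for *Isg15* and *Oas3*.

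Among 19 interferon receptors and signalling genes, 5 were called higher (6 without replicate 3) and 0 lower, with a median of 0.64. *Stat2*, a signal transducer of the type I interferon receptor, measured 35.8 and 40.5 against 121, 109 and 213 CPM (log2 fold change 1.95, SE 0.32, adjusted p = 0.0150). *Irf9*, the DNA-binding partner of *Stat2*, measured 37.2 and 41.8 against 153, 133 and 181 CPM (log2 fold change 1.98, SE 0.17, adjusted p = 0.000344). *Irf7*, the factor that amplifies interferon alpha production, had the largest fold of the 5, from 7.30 and 8.81 CPM to 188, 156 and 227 CPM (log2 fold change 4.56, SE 0.41, adjusted p = 0.000500), and *Irf1* went from 21.1 and 18.8 to 65.7, 57.3 and 85.0 CPM (log2 fold change 1.80, SE 0.37, adjusted p = 0.0399). The other 14 members lay between -0.09 and 3.33. No transcript of an interferon itself passed the filter. Of 20 interferon genes, 3 had any count in the 5 livers, the highest was 3 counts, and the sums were 1 count over both TNFR1KO livers and 7 counts over the 3 Casp8 TNFR1 dKO livers. A level of 3 counts corresponds to 0.0820 to 0.171 CPM in these libraries, so interferon transcripts were not detectable above that at this depth.

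Antigen presentation by MHC class I, which interferons raise, moved with the ISGs. All 20 listed genes were tested, 10 were called higher and 0 lower, the median was 1.42 and the lowest was 0.64, and without replicate 3 16 were called. *Tapbp*, the peptide-loading chaperone tapasin, went from 57.7 and 58.8 to 197, 191 and 172 CPM (log2 fold change 1.68, SE 0.19, adjusted p = 0.00207). The peptide transporter *Tap1* went from 7.08 and 8.58 to 71.0, 61.7 and 61.4 CPM (log2 fold change 3.05, SE 0.35, adjusted p = 0.00228). The transactivator *Nlrc5*, which drives class I genes, went from 0.875 and 1.18 to 30.6, 21.9 and 14.5 CPM (log2 fold change 4.45, SE 0.58, adjusted p = 0.00419). The immunoproteasome subunit *Psmb8* measured 8.34 and 8.69 against 38.8, 34.7 and 25.1 CPM (log2 fold change 1.95, SE 0.29, adjusted p = 0.00787). The class Ib gene *H2-T22* measured 12.0 and 11.7 against 28.7, 28.2 and 28.3 CPM (log2 fold change 1.26, SE 0.21, adjusted p = 0.0145). Of 12 genes of MHC class II and co-stimulation, 0 were called by edgeR in either direction, with or without replicate 3, with a median of -0.25 and a range of -1.48 to 2.83 (3 members had an unadjusted p under 0.05, limma-voom called 0 and DESeq2 called 2).

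Necroptosis genes were all tested, 25 in number. By edgeR, the 3 called higher were the sensors *Zbp1* and *Tlr3* and the effector *Mlkl*, and 0 were called lower, with 9 higher and 1 lower at an unadjusted p under 0.05. Without replicate 3, *Rnf31*, which encodes the ubiquitin ligase HOIP, was also called higher and *Casp8* lower. With all livers, limma-voom also called *Casp8* lower, and DESeq2 called 8 higher and *Casp8* lower, adding *Birc3*, *Rnf31*, *Tlr4*, *Tnfaip3* and *Tnfrsf1a*. *Zbp1* (chromosome 2, 173206612 to 173218923) was at 0.601 and 0.873 CPM in TNFR1KO livers and at 35.7, 27.1 and 31.4 CPM in Casp8 TNFR1 dKO livers, a wide gap with a narrow group above it. The log2 fold change of *Zbp1* was 5.42 (SE 0.46, adjusted p = 0.000368), and it was 5.43 (SE 0.43, adjusted p = 0.000226) without replicate 3. *Mlkl* went from 4.37 and 3.68 CPM to 14.7, 13.2 and 24.6 CPM, highest in replicate 3 (log2 fold change 2.12, SE 0.32, adjusted p = 0.00963). *Tlr3*, a receptor for double-stranded RNA that signals through TRIF, went from 3.28 and 3.42 CPM to 13.2, 10.7 and 11.3 CPM (log2 fold change 1.81, SE 0.27, adjusted p = 0.00873). The kinases were not called by edgeR. *Ripk3* measured 17.7 and 18.4 CPM against 24.2, 27.5 and 59.6 CPM, with replicate 3 well above the other 2 (log2 fold change 1.04, SE 0.36, adjusted p = 0.196, and 0.52 with adjusted p = 0.165 without replicate 3). *Ripk1* measured 44.8 and 41.0 against 55.2, 54.4 and 34.9 CPM (log2 fold change 0.17, SE 0.19, adjusted p = 0.665), with replicate 3 below and the other 2 above the TNFR1KO pair. The adaptor genes *Fadd* (log2 fold change -0.59, SE 0.45, adjusted p = 0.534) and *Ticam1*, which encodes TRIF (log2 fold change 0.21, SE 0.19, adjusted p = 0.589), and the caspase-8 partner *Cflar* (log2 fold change 0.23, SE 0.22, adjusted p = 0.619) were not called. The other 15 members had log2 fold changes of -0.38 to 1.97, and edgeR called 0 of them with all livers.

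Genes of the other forms of inflammatory cell death showed a similar split between a few risen members and the rest. Of 15 pyroptosis and inflammasome genes, 4 were called higher (6 without replicate 3) and 0 lower. *Casp4*, the caspase that senses lipopolysaccharide and is called caspase-11 in mice, went from 0.793 and 0.797 CPM to 10.4, 9.60 and 38.6 CPM, with replicate 3 well above the others (log2 fold change 4.61, SE 0.72, adjusted p = 0.0110, and 3.64 with adjusted p = 0.000676 without replicate 3). *Casp1*, which matures interleukin-1 beta, measured 4.32 and 4.44 against 12.4, 12.2 and 9.28 CPM (log2 fold change 1.37, SE 0.24, adjusted p = 0.0192). Its substrate *Gsdmd*, which forms the pyroptotic pore, measured 18.01 and 19.1 against 47.3, 48.6 and 53.1 CPM (log2 fold change 1.42, SE 0.26, adjusted p = 0.0224). *Mefv*, which encodes pyrin, measured 1.86 and 2.05 against 6.65, 8.53 and 9.74 CPM (log2 fold change 2.08, SE 0.39, adjusted p = 0.0238). Of 14 nucleic acid sensors and adaptors, 3 were called higher (4 higher and 1 lower without replicate 3). These were *Tmem173*, *Tlr13* and *Myd88*. *Tmem173*, which encodes STING, measured 9.18 and 8.01 against 20.6, 23.9 and 27.2 CPM (log2 fold change 1.47, SE 0.18, adjusted p = 0.00282). The RNA receptor *Tlr13* measured 6.34 and 5.01 against 21.2, 18.99 and 20.2 CPM (log2 fold change 1.82, SE 0.32, adjusted p = 0.0186). The adaptor *Myd88* measured 22.7 and 22.97 against 47.5, 52.1 and 34.2 CPM (log2 fold change 0.97, SE 0.18, adjusted p = 0.0254). The sensor of cytosolic DNA, *Cgas*, was called only without replicate 3, where it had the value closest to the TNFR1KO livers: it measured 5.33 and 4.71 against 15.1, 14.998 and 6.49 CPM (log2 fold change 1.28, SE 0.35, adjusted p = 0.110, and 1.58 with adjusted p = 0.00199 without replicate 3). Of 12 death ligands and receptors, 1 was called (3 without replicate 3), *Tnf*, the ligand of the receptor that both sides lack. Its level was low, 0.301 and 0.380 CPM against 4.604, 3.99 and 2.16 CPM, and all 3 double-knockout livers were above the TNFR1KO pair (log2 fold change 3.40, SE 0.67, adjusted p = 0.0306, and 3.66 with adjusted p = 0.00878 without replicate 3).

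Chemokines were among the genes with the largest folds. Of 24 listed CC and CXC chemokines 19 were tested, 9 were called higher and 1 lower, and the median log2 fold change was 3.71 (4.14 without replicate 3, with 11 called higher and 1 lower). The median was 2.73 with the 6 members that had 3 counts or fewer in each TNFR1KO liver set at the floor. *Cxcl10* (chromosome 5, 92346638 to 92348889), an interferon-induced chemokine that draws T and NK cells through CXCR3, had the smallest p of all genes tested. It measured 3.47 and 2.54 CPM in TNFR1KO livers and 125, 103 and 92.6 CPM in Casp8 TNFR1 dKO livers. This gave a log2 fold change that was 5.14 (SE 0.24, adjusted p = 2.04e-05), and it was 5.23 (SE 0.20, adjusted p = 5.00e-06) without replicate 3. The monocyte chemokines *Ccl2* and *Ccl7*, which act on CCR2, were close to absent in TNFR1KO livers. *Ccl2* went from 0.328 and 0.304 to 21.4, 23.8 and 64.4 CPM (log2 fold change 6.83, SE 0.63, adjusted p = 0.000590, and 6.14 with adjusted p = 2.24e-05 without replicate 3), and *Ccl7*, with at most 2 counts in a TNFR1KO liver and 8.23, 9.29 and 15.55 CPM in the Casp8 TNFR1 dKO livers, was higher by a ratio of 161 in pooled counts over the scaled library totals (95% counting interval 62.7 to 592). Such intervals are exact and cover counting error only. *Ccl4*, a chemokine of activated macrophages, went from 0.137 and 0.114 to 10.1, 11.5 and 4.78 CPM (log2 fold change 6.07, SE 0.63, adjusted p = 0.00127). *Ccl24*, eotaxin-2, went from 5.99 and 4.10 to 23.02, 24.7 and 44.8 CPM (log2 fold change 2.61, SE 0.33, adjusted p = 0.00379). The member called lower was *Cxcl12*, which holds blood progenitors and B cell precursors in their niche through CXCR4, at 186 and 218 CPM against 123, 128 and 88.3 CPM (log2 fold change -0.84, SE 0.17, adjusted p = 0.0372, and -0.68 with adjusted p = 0.00566 without replicate 3).

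Of 13 cytokines and growth factors tested, 3 were called higher (5 without replicate 3) and 0 lower. *Csf1*, the growth factor of macrophages, had a modest and even difference, 29.3 and 32.9 CPM against 69.9, 66.8 and 68.8 CPM (log2 fold change 1.14, SE 0.13, adjusted p = 0.00204). *Il1rn*, the interleukin-1 receptor antagonist, went from 21.2 and 15.6 to 114, 92.8 and 94.4 CPM (log2 fold change 2.44, SE 0.35, adjusted p = 0.00708). *Il1b* went from 0.246 and 0.190 to 2.87, 2.30 and 4.21 CPM (log2 fold change 3.80, SE 0.73, adjusted p = 0.0283). *Osm*, oncostatin M, measured 3.50 and 2.85 against 5.95, 7.53 and 135 CPM, the last value being that of replicate 3, and it was called only without this liver (log2 fold change 3.95, SE 1.26, adjusted p = 0.162, and 1.08 with adjusted p = 0.0441 without replicate 3). NF-kB subunits and their feedback inhibitors were called in 7 of 13 (10 without replicate 3), all higher, with a median of 1.62. *Zc3h12a*, an RNase that degrades cytokine transcripts, went from 2.87 and 2.39 to 12.99, 10.9 and 16.4 CPM (log2 fold change 2.35, SE 0.26, adjusted p = 0.00199). The inhibitor *Nfkbie* went from 2.32 and 2.24 to 6.95, 6.50 and 7.57 CPM (log2 fold change 1.62, SE 0.22, adjusted p = 0.00499). The subunit *Relb* went from 2.10 and 2.13 to 9.06, 9.98 and 30.6 CPM (log2 fold change 2.96, SE 0.54, adjusted p = 0.0229, and 2.17 with adjusted p = 0.00114 without replicate 3).

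Markers of resident macrophages included called members that fell. Of 25 genes that mark Kupffer cells and macrophages, edgeR called 0 higher and 2 lower, with 3 and 8 at an unadjusted p under 0.05. Without replicate 3 it called 1 higher, *Fcgr1*, and the same 2 lower. DESeq2 called *Cd68* and *Lyz2* higher and 4 genes lower, and limma-voom called 0 higher and 3 lower. The median was -0.28, and 12 lay below and 4 above in all Casp8 TNFR1 dKO livers, against 20.5% of all genes in each direction. *Folr2* (chromosome 7, 101839988 to 101857194), a folate receptor of resident fetal macrophages, fell from 4.65 and 3.64 CPM to 0.671, 0.688 and 0.740 CPM, nearly the same low value in all 3 livers. Its log2 fold change was -2.56 (SE 0.35, adjusted p = 0.00503), and it was -2.60 (SE 0.39, adjusted p = 0.00576) without replicate 3. *Fcna*, which encodes ficolin A, a lectin of Kupffer cells, fell from 51.2 and 46.1 CPM to 13.8, 11.8 and 9.23 CPM (log2 fold change -2.07, SE 0.31, adjusted p = 0.00847). *Clec4f*, the lectin that defines Kupffer cells, measured 13.9 and 11.4 CPM against 1.16, 0.550 and 0.114 CPM and the complement receptor *Vsig4* 2.32 and 2.58 CPM against 0, 0.0688 and 0 CPM, but neither passed edgeR's test (log2 fold change -4.29, SE 1.08, adjusted p = 0.0830 for *Clec4f*, adjusted p = 0.122 for *Vsig4*). With 2 counts in all 3 double-knockout livers, *Vsig4* was higher in TNFR1KO livers by a ratio of 96.6 (95% counting interval 26.3 to 804.5). The general macrophage marker *Cd68* measured 25.6 and 22.4 CPM against 41.2, 40.6 and 47.8 CPM (log2 fold change 0.85, SE 0.23, adjusted p = 0.1003). The summed level of the 25 genes was 1717 and 1649 CPM in TNFR1KO livers and 1780, 1830 and 2122 CPM in Casp8 TNFR1 dKO livers.

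Of 25 genes of activated and lipid-associated macrophages, 7 were called higher and 0 lower (10 without replicate 3), with a median of 2.46. *Gpnmb* (chromosome 6, 49036546 to 49070929), a glycoprotein of macrophages loaded with lipid or debris, went from 1.37 and 1.25 CPM to 79.2, 108 and 46.4 CPM, with replicate 3 the lowest of its group. The log2 fold change of *Gpnmb* was 5.89 (SE 0.51, adjusted p = 0.000371), and it was 6.15 (SE 0.38, adjusted p = 9.29e-05) without replicate 3. The macrophage metalloelastase *Mmp12* had 2 counts or fewer in each TNFR1KO liver and 18.5, 24.9 and 58.4 CPM in the Casp8 TNFR1 dKO livers, a ratio of 622 (95% counting interval 213 to 3019). *Mmp13*, a collagenase, had 3 counts or fewer against 14.4, 11.5 and 17.6 CPM, a ratio of 177 (75.5 to 545). *Acod1*, which makes itaconate in activated macrophages, had 3 counts or fewer against 8.63, 9.18 and 13.3 CPM, a ratio of 103 (47.3 to 283). Without replicate 3 these ratios were 451, 164 and 93.2. *Timp1*, an inhibitor of metalloproteinases, went from 1.34 and 1.48 to 14.9, 19.5 and 52.5 CPM (log2 fold change 4.36, SE 0.56, adjusted p = 0.00396, and 3.61 with adjusted p = 0.000123 without replicate 3).

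**Figure D4:**
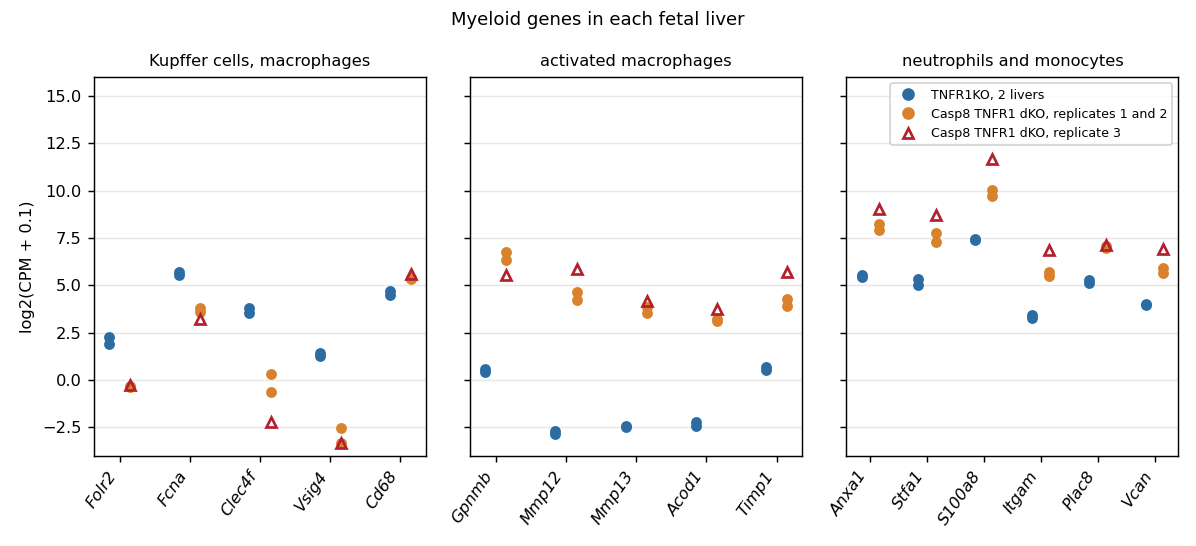
Myeloid genes in each of the 5 livers as log2(CPM + 0.1), with TNFR1KO livers in blue, Casp8 TNFR1 dKO replicates 1 and 2 in orange and replicate 3 as a triangle. *Folr2* and *Fcna* lie lower in all 3 double-knockout livers, the 5 genes of activated macrophages lie higher, and the neutrophil genes lie higher with the largest values in replicate 3.

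Neutrophil lineage genes rose in part. Of 25 tested, 4 were called higher (against 2.05% of all genes) and 0 lower with all livers, 13 were called higher without replicate 3 (against 4.46%), and the medians were 2.87 and 2.35. The summed level was 1758 and 1708 CPM in TNFR1KO livers and 6445, 7972 and 17883 CPM in Casp8 TNFR1 dKO livers, so replicate 3 was above the sum of the other 2. *S100a8*, a subunit of calprotectin, went from 169.8 and 174 CPM to 828, 1055 and 3295 CPM (log2 fold change 3.33, SE 0.72, adjusted p = 0.0478, and 2.46 with adjusted p = 0.0250 without replicate 3). *Anxa1*, annexin A1, went from 45.6 and 43.2 to 239, 298 and 524 CPM (log2 fold change 2.99, SE 0.58, adjusted p = 0.0294). The cystatin *Stfa1* went from 40.5 and 32.3 to 154, 216 and 426 CPM (log2 fold change 2.87, SE 0.59, adjusted p = 0.0372). The integrin *Itgam*, CD11b, went from 10.8 and 9.49 to 44.1, 52.6 and 117 CPM (log2 fold change 2.81, SE 0.61, adjusted p = 0.0482). Among 10 monocyte genes 2 were called higher (4 without replicate 3). *Plac8* measured 34.2 and 38.0 against 124, 137 and 140.0 CPM (log2 fold change 1.89, SE 0.20, adjusted p = 0.00134). *Vcan*, which encodes versican, measured 15.47 and 15.8 against 59.5, 50.9 and 121 CPM (log2 fold change 2.30, SE 0.44, adjusted p = 0.0283). *Spi1*, which encodes PU.1, the factor of myeloid commitment, was the only called gene of 15 stem and progenitor markers (2 were called without replicate 3), at 16.1 and 18.9 against 39.9, 50.5 and 62.1 CPM (log2 fold change 1.54, SE 0.30, adjusted p = 0.0283). For B lineage genes the median was the lowest of all lists, -1.42 (-1.41 without replicate 3). In all Casp8 TNFR1 dKO livers 11 of 13 lay below and 1 above, against 20.5% of all genes in each direction. Still, edgeR called 0 with or without replicate 3 (2 had an unadjusted p under 0.05, and limma-voom and DESeq2 called 0). *Pax5*, the factor of B cell identity, measured 7.11 and 8.12 CPM against 2.20, 2.75 and 1.94 CPM (log2 fold change -1.72, SE 0.64, adjusted p = 0.224).

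Acute phase and adhesion genes also had called members. Of 25 acute phase genes tested, 4 were called higher and 0 lower, the same numbers as without replicate 3, and the median of 1.76 was 0.99 without replicate 3. The summed level was 8778 and 7993 CPM against 16587, 16537 and 45843 CPM, so the group lay above the TNFR1KO livers also without replicate 3. *Lcn2*, lipocalin-2, which binds bacterial siderophores, went from 64.2 and 57.8 CPM to 1099.6, 1216 and 3247 CPM (log2 fold change 4.93, SE 0.93, adjusted p = 0.0268, and 4.25 with adjusted p = 0.0188 without replicate 3). *Serpina3g*, an inhibitor of cysteine proteases, went from 1.42 and 1.94 to 48.8, 45.1 and 152 CPM (log2 fold change 5.61, SE 0.64, adjusted p = 0.00207, and 4.81 with adjusted p = 0.000103 without replicate 3). The metalloreductase *Steap4* went from 15.4 and 13.4 to 169.8, 158 and 109 CPM (log2 fold change 3.33, SE 0.57, adjusted p = 0.0176). The interleukin-1 receptor *Il1r1* went from 53.3 and 53.6 to 106, 104 and 182 CPM (log2 fold change 1.29, SE 0.28, adjusted p = 0.0463). Reads of the Serpina3 cluster may be divided among its close copies. Of 14 adhesion genes 6 were called higher (8 without replicate 3). *Icam1*, the ligand of leukocyte integrins, went from 20.7 and 23.7 to 58.2, 58.6 and 88.5 CPM (log2 fold change 1.62, SE 0.23, adjusted p = 0.00708). *Cd44* went from 85.5 and 83.4 to 154, 154 and 156 CPM (log2 fold change 0.88, SE 0.12, adjusted p = 0.00479). *Selp*, P-selectin, went from 2.35 and 1.90 to 9.48, 10.5 and 26.8 CPM (log2 fold change 2.87, SE 0.55, adjusted p = 0.0274, and 2.23 with adjusted p = 0.00867 without replicate 3). *Sele*, E-selectin, with at most 3 counts in a TNFR1KO liver and 2.99, 2.75 and 26.4 CPM in the double-knockout livers, was higher by a ratio of 102 (95% counting interval 43.3 to 314). Its size rested on replicate 3, and without this liver the ratio was 36.2 (15.2 to 113). Of 20 endothelial genes edgeR called 0 with all livers and 1 without replicate 3 (with all livers 7 had an unadjusted p under 0.05, limma-voom called 0 and DESeq2 called 3), and the median of 0.58 was 0.16 without replicate 3.

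Outside the lists, 207 of the 353 genes were called higher. The 10 with the largest folds by the naming rule were *Rgs4*, *Serpina3f*, *Lilr4b*, *Rgs1*, *Oas1b*, *Vnn1*, *Ifi27l2a*, *Cd14*, *Trim34a* and *Gfpt2*, the last with its size resting on replicate 3 (log2 fold change 3.26, SE 0.70, adjusted p = 0.0465, and 2.09 with adjusted p = 0.00164 without replicate 3). *Rgs1*, a brake on chemokine receptor signalling in leukocytes, went from 0.246 and 0.531 to 8.02, 6.57 and 19.8 CPM (log2 fold change 4.89, SE 0.81, adjusted p = 0.0151, and 4.26 with adjusted p = 0.00553 without replicate 3). *Lilr4b*, an inhibitory receptor of myeloid cells, went from 0.601 and 0.949 to 16.01, 15.4 and 144 CPM (log2 fold change 6.24, SE 1.18, adjusted p = 0.0260, and 4.35 with adjusted p = 0.000785 without replicate 3). *Cd14*, the co-receptor of TLR4 for lipopolysaccharide, went from 1.07 and 1.37 to 9.45, 10.4 and 33.7 CPM (log2 fold change 3.87, SE 0.68, adjusted p = 0.0194, and 3.03 with adjusted p = 0.00459 without replicate 3). *Vnn1*, the pantetheinase of liver, was lowest in replicate 3, at 2.68 and 3.34 against 62.7, 57.5 and 18.4 CPM (log2 fold change 3.94, SE 0.68, adjusted p = 0.0180). *Rgs4* was listed at 0 in 1 TNFR1KO liver and rested in size on replicate 3, at 0 and 0.304 against 10.5, 10.4 and 99.8 CPM (log2 fold change 8.17, SE 1.49, adjusted p = 0.0231, and 6.25 with adjusted p = 0.00163 without replicate 3).

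Few genes were called lower in edgeR's fit of all livers, 21 of 17243. That number depended on the fit. It was 3 with only the 5 livers compared, 124 without replicate 3, 162 with DESeq2 and 1814 with limma-voom and quality weights. Lying below both TNFR1KO livers in all Casp8 TNFR1 dKO livers was as common as lying above, each at 20.5% of all genes. The clearest of the 21 was *Car3* (chromosome 3, 14863512 to 14872523), which encodes carbonic anhydrase 3, an enzyme of liver, muscle and fat. Its level was 228 and 242 CPM in TNFR1KO livers and 26.7, 19.4 and 23.5 CPM in Casp8 TNFR1 dKO livers, with both groups narrow and far apart. Its log2 fold change was -3.34 (SE 0.18, adjusted p = 3.40e-05), and it was -3.35 (SE 0.19, adjusted p = 5.44e-05) without replicate 3. Replicate 3, in which other muscle genes were high, was as low for *Car3* as the other 2. The carboxylesterases *Ces1d*, which hydrolyses triglyceride, and *Ces1g* lie in 1 cluster on chromosome 8 and fell together. *Ces1d* went from 70.6 and 56.3 CPM to 6.13, 3.47 and 5.07 CPM (log2 fold change -3.70, SE 0.71, adjusted p = 0.0278). *Ces1g* went from 16.9 and 11.6 CPM to 2.87, 2.03 and 1.03 CPM (log2 fold change -2.83, SE 0.43, adjusted p = 0.00975). Because their family has close copies, the division of reads among its members is uncertain. Solute carriers were also among the genes called lower. *Slc22a8*, a transporter of organic anions, went from 12.8 and 12.5 to 3.08, 3.16 and 0.911 CPM (log2 fold change -2.39, SE 0.48, adjusted p = 0.0356). *Slc17a3* went from 24.8 and 21.9 to 11.8, 8.74 and 5.58 CPM (log2 fold change -1.42, SE 0.29, adjusted p = 0.0395). The insulin-regulated glucose transporter *Slc2a4* went from 56.0 and 56.7 to 37.4, 33.9 and 33.0 CPM (log2 fold change -0.70, SE 0.13, adjusted p = 0.0273). Among the 21 genes called lower, the potassium channel gene *Kcna2* had the largest fitted fall. It went from 8.47 and 6.76 CPM to 0.518, 0.0688 and 0.683 CPM (log2 fold change -4.21, SE 0.72, adjusted p = 0.0174). The other 5 genes named by the rule were *Fras1*, *Slc45a3*, *Dclk2*, *Josd2* and *Nynrin*, with log2 fold changes of -1.03 to -0.71.

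The main cell types of the organ gave 0 calls in edgeR's fit of all livers. Among 30 hepatocyte genes 0 were called in either direction (median -0.10, and -0.35 without replicate 3), 1 had an unadjusted p under 0.05, and limma-voom and DESeq2 called 0. Among 29 erythroid genes tested 0 were called (median -0.27, and -0.47 without replicate 3, with 3 called lower there, *Rhd*, *Trim58* and *Cldn13*, at -0.56, -0.66 and -0.55 on the log2 scale), 7 had an unadjusted p under 0.05, all lower, limma-voom called 0 and DESeq2 called 2. The Rh antigen gene *Rhd* measured 556 and 514 CPM against 358, 369 and 371 CPM (log2 fold change -0.55, SE 0.16, adjusted p = 0.120, and -0.56 with adjusted p = 0.0435 without replicate 3). Of DNA replication and mitosis, 25 genes were tested (median -0.50, and -0.20 without replicate 3). Of nuclear oxidative phosphorylation subunits, 22 were tested (median -0.23, and -0.09). Both lists had 0 calls by edgeR, limma-voom and DESeq2, with 1 and 0 genes at an unadjusted p under 0.05. In all Casp8 TNFR1 dKO livers, 18 of 25 replication, 11 of 22 oxidative phosphorylation, 14 of 29 erythroid and 9 of 30 hepatocyte genes lay below both TNFR1KO livers. In the same order, 0, 1, 0 and 3 lay above both, against 20.5% of all genes in each direction. Of 12 imprinted genes edgeR called 0 with all livers and 1 without replicate 3, with 2 at an unadjusted p under 0.05, 0 by limma-voom and 1 by DESeq2. Of 24 cholesterol genes 0 were called (2 had an unadjusted p under 0.05, limma-voom called 0 and DESeq2 1), and *Ch25h*, which makes the interferon-induced oxysterol 25-hydroxycholesterol, was called only without replicate 3. It had 3 counts or fewer in each TNFR1KO liver and 1.10, 1.34 and 34.7 CPM in Casp8 TNFR1 dKO livers. The ratio of pooled counts was 108 (95% counting interval 46.2 to 335), and 15.3 (6.26 to 48.4) without replicate 3, where the adjusted p was 0.00199.

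Some lists took their size from replicate 3. The median of 22 striated muscle genes was 5.08, but 0.95 without replicate 3, and 0 were called in both fits (21 had an unadjusted p under 0.05, limma-voom called 0 and DESeq2 3). For 15 immediate early and heat shock genes the medians were 4.02 and 1.21, with 2 and 4 called, and for 15 hypoxia genes 1.96 and 0.60, with 1 and 4 called. *Atf3* measured 2.30 and 1.29 CPM against 12.3, 14.9 and 113 CPM (log2 fold change 4.69, SE 1.03, adjusted p = 0.0489, and 2.90 with adjusted p = 0.00315 without replicate 3). *Hk2*, hexokinase 2, measured 21.8 and 19.7 CPM against 57.3, 52.5 and 191 CPM (log2 fold change 2.27, SE 0.54, adjusted p = 0.0702, and 1.40 with adjusted p = 0.0111 without replicate 3). In both cases replicates 1 and 2 were above the TNFR1KO livers and replicate 3 far above all. Of 15 p53 targets 1 was called with and without replicate 3, *Pmaip1*, which encodes the BH3-only protein NOXA, at 3.58 and 2.92 against 11.5, 10.9 and 23.9 CPM (log2 fold change 2.24, SE 0.37, adjusted p = 0.0142). The cystine transporter *Slc7a11* was the called member of 17 stress response genes (2 were called without replicate 3), at 0.875 and 0.683 against 7.41, 7.98 and 5.41 CPM (log2 fold change 3.14, SE 0.48, adjusted p = 0.0103). Markers of other cell types were mostly not called. Of 28 mesenchymal genes 1 was called (3.57%, near the 2.05% of all genes) and 2 without replicate 3 (7.14%, against 4.46%). The 1 called with all livers was the neurotrophin receptor gene *Ngfr*, at 6.94 and 7.21 against 21.9, 19.4 and 30.7 CPM (log2 fold change 1.76, SE 0.24, adjusted p = 0.00579). Of 11 gut and biliary genes 1 was called, *Vil1*, which encodes villin, at 1.78 and 1.82 against 9.18, 8.08 and 12.0 CPM (log2 fold change 2.43, SE 0.31, adjusted p = 0.00376). Of 15 megakaryocyte genes only *Selp* was called, and of 11 BCL-2 family genes only *Bok* (2 genes without replicate 3, log2 fold change 1.63, SE 0.33, adjusted p = 0.0331).

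The same difference in caspase-8 can be set beside the one between Casp8 MLKL dKO and WT livers, in which caspase-8 is lost together with MLKL and TNFR1 is present; the 2 differences share no liver. The difference of the differences was tested in the same edgeR fit. For 26 genes (0.151% of 17243) the difference was more positive on the TNFR1-null side, and for 2 (0.0116%) it was more negative. All 26 were among the genes called higher in Casp8 TNFR1 dKO livers. Without Casp8 TNFR1 dKO replicate 3 the counts were 70 and 5, and without Casp8 MLKL dKO replicate 1, a liver with 243180 CPM of hepatocyte genes, 100 and 4. Leaving out either TNFR1KO liver left 2 and 1, or 0 and 0, so the count rests on both of these livers, and limma-voom gave 8 and 1. Of 66 ISGs, 10 were among the 26. In Casp8 MLKL dKO against WT livers the ISGs had a median log2 fold change of 1.04 and a range of -0.30 to 3.52. Their summed level was 3269 CPM in Casp8 MLKL dKO replicate 1, against 2143 and 2156 CPM in replicates 2 and 3. The WT livers lay at 1732.5 to 1797 CPM. For all 66 ISGs the difference was larger on the TNFR1-null side, by a median of 1.93 on the log2 scale. The levels of *Cxcl10* show it, with 5.37, 5.24 and 4.81 CPM in WT and 15.6, 12.3 and 13.9 CPM in Casp8 MLKL dKO livers, and the difference on the TNFR1-null side was larger by 3.71 on the log2 scale (SE 0.27, adjusted p = 0.00156). *Zbp1* was at 0.806, 0.670 and 0.394 CPM in WT and 2.07, 0.871 and 1.34 CPM in Casp8 MLKL dKO livers (difference of the differences 4.24, adjusted p = 0.0206). For *Ccl24* the Casp8 MLKL dKO livers lay below the WT livers, 1.54, 1.45 and 1.26 CPM against 6.49, 5.32 and 6.62 CPM (difference of the differences 4.72, adjusted p = 0.00569). *Car3* and *Folr2* had the more negative differences on the TNFR1-null side, where both fell. *Car3* measured 214, 214 and 178 CPM in WT and 121, 126 and 154 CPM in Casp8 MLKL dKO livers (difference of the differences -2.75, adjusted p = 0.00416). *Folr2* measured 4.26, 4.48 and 4.97 CPM in WT and 10.4, 4.59 and 5.84 CPM in Casp8 MLKL dKO livers (difference of the differences -3.17, adjusted p = 0.0361). TNFR1 and MLKL both differ between these pairs of genotypes, so what belongs to either cannot be told apart.

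**Figure D5:**
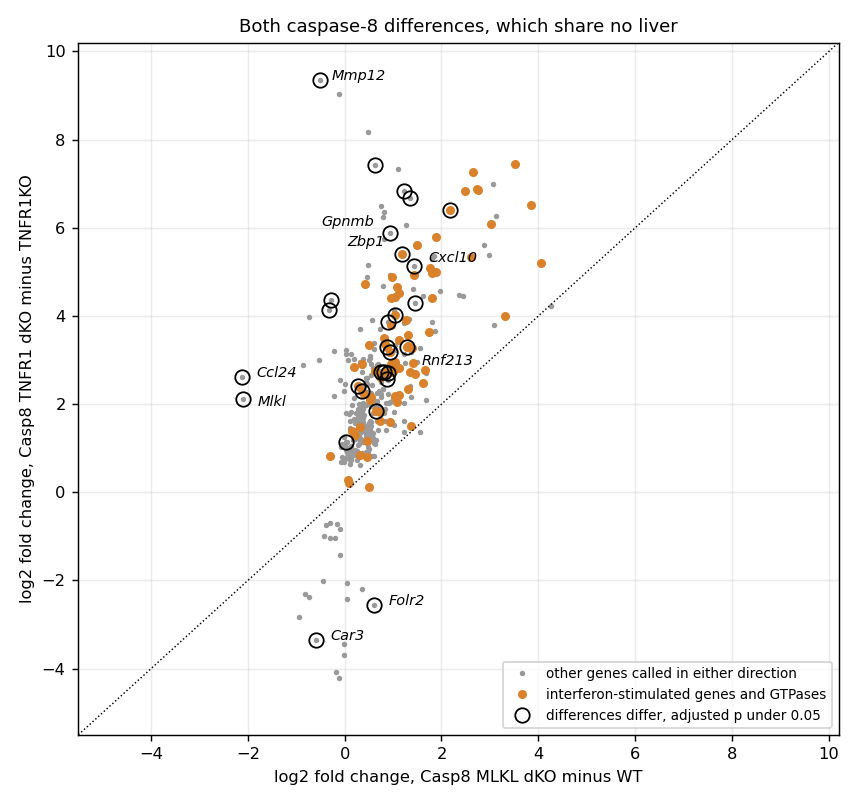
Log2 fold changes of genes called in either direction and of listed interferon genes, with Casp8 TNFR1 dKO minus TNFR1KO on the vertical axis and Casp8 MLKL dKO minus WT on the horizontal axis; the dotted line marks equal differences. Open circles are the 28 genes whose differences differ, of which 26 lie above the line and 2, *Car3* and *Folr2*, below it.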

How the data were processed

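Fetal livers were dissected at E15.5 and their mRNA was sequenced as single-end reads. Per the study's methods and the submitters' processing notes, reads were aligned with GSNAP to GRCm38 (mm10), and uniquely mapped reads were counted on the exons of each Ensembl gene. The counter and its use of strand are not given in the sources used here, and the methods and the labels name different library kits, so overlapping and antisense genes are not separated. The authors deposited, per liver, raw counts, the exon width of each gene in bases, and RPKM, of which only the counts were analysed here. The tables list 52636 genes, and 52489 were named from GENCODE M21. Libraries held 23129212 to 35819339 counts. The detection limit of 3 counts covers counting error only.

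Genes were kept by filterByExpr (minimum count 10), scaled by TMM and tested in R 4.3.3 with edgeR 4.0.16 (quasi-likelihood fit of the 4 genotypes, 11 livers, biological coefficient of variation 33.3%), with Benjamini-Hochberg adjustment over all genes tested and calls at an adjusted p under 0.05. All adjusted p-values are from this fit unless limma-voom (limma 3.58.1) or DESeq2 1.42.0 is named. The code was tested on simulated counts. The genotypes compared and the gene lists were chosen with earlier results of these data known. Of 827 list members 826 were matched. Named genes were the targeted genes, the necroptosis genes, the up to 5 members of each list with the smallest p, called members that moved against their list's median and, outside the lists, the 10 genes with the largest rise and up to 15 with the largest fall among those called with and without Casp8 TNFR1 dKO replicate 3 at a mean of at least 5 CPM, each double-knockout liver lying on 1 side of both TNFR1KO livers. *Isg15*, *Ifit1*, *Oas3*, *Oas1a*, *Oas1g* and *Apol9b* were taken by the rule for printed promoters. The naming rule gave 246 genes, and those not described singly are in the counts and ranges. Results for 1 called gene are not reported here. Where a group had at most 3 counts in each liver, the ratio of summed counts over scaled library totals is given with an exact 95% interval, and where it had 0, a bound against 3 counts per library. Alternatives were other scaling, filters, tests and fits, a replicate block, chromosomes X and Y left out, and each liver left out in turn. Promoters are RefSeq's (GRCm38.p6) and gene positions GENCODE's (GRCm38). Figures were drawn with matplotlib 3.10.9.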

Additional observations from a re-analysis of the deposited data

Results flagged for a closer look

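Among the genes named above, 21 had a difference between Casp8 TNFR1 dKO and TNFR1KO livers that differed from the one between Casp8 MLKL dKO and WT livers, by edgeR's test of the difference of the differences adjusted over all genes. The values below are that difference of differences on the log2 scale, and positive values mean a larger rise on the TNFR1-null side. The livers of the pairs differ in TNFR1 and in MLKL, so the share of either cannot be told apart.

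For chemokines and secreted factors the values were 3.71 for *Cxcl10* (adjusted p = 0.00156), 5.59 for *Ccl2* (adjusted p = 0.0245), 4.72 for *Ccl24* (adjusted p = 0.00569) and 1.12 for *Csf1* (adjusted p = 0.0394). Interferon-induced genes gave 2.002 for *Rnf213* (adjusted p = 0.00639), 1.92 for *Irgm1* (adjusted p = 0.0157), 2.44 for *Bst2* (adjusted p = 0.0144) and 2.84 for *Oas1b* (adjusted p = 0.0247). Of the same kind were *Dhx58* at 2.24 (adjusted p = 0.0247), *Adar* at 1.20 (adjusted p = 0.0433), *Zbp1* at 4.24 (adjusted p = 0.0206), *Ifit1* at 4.21 (adjusted p = 0.0361) and *Trim34a* at 2.97 (adjusted p = 0.0493).

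Genes of activated macrophages gave 5.33 for *Acod1* (adjusted p = 0.0144), 6.80 for *Mmp13* (adjusted p = 0.0119), 9.85 for *Mmp12* (adjusted p = 0.00639), 4.94 for *Gpnmb* (adjusted p = 0.0144) and 4.64 for *Timp1* (adjusted p = 0.0394). The first 3 had 3 counts or fewer in each TNFR1KO liver, so their fitted values depend on the prior count and are no bounds. Both values below 0 are those of genes that fell, -2.75 for *Car3* (adjusted p = 0.00416) and -3.17 for *Folr2* (adjusted p = 0.0361). *Mlkl* stood at 4.22 (adjusted p = 0.00639). Of this value 2.12 is its difference between Casp8 TNFR1 dKO and TNFR1KO livers, and the difference between Casp8 MLKL dKO livers, in which the gene is deleted, and WT was -2.11 (0.729, 1.22 and 1.03 CPM against 4.45, 4.23 and 4.26 CPM).

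These calls rest on few livers. Leaving out TNFR1KO replicate 1 left 3 of the 28 genes called over the whole genome, leaving out TNFR1KO replicate 2 left 0, and limma-voom called 9.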

How the results depend on the processing

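For the set of 116 genes compared above, no log2 fold change changed sign under any setting that tested them. Genes named only for a call by another tool or fit were not in this check. These genes were chosen mainly for a small p or for calls in both fits, so a stable sign is partly built in. All 353 genes called higher kept a positive log2 fold change under most settings that tested them. The exceptions were leaving out Casp8 TNFR1 dKO replicate 1 (352 did) or replicate 2 (351). How many genes were called was not stable. The 353 higher, 21 lower and 56 interferon-stimulated calls, and the 28 genes whose difference differed from Casp8 MLKL dKO minus WT, became 1107, 162, 60 and 197 with DESeq2's Wald test. With limma-voom they were 367, 25, 56 and 9, and with quality weights per library 2511, 1814, 66 and 1935. Fitting only the 5 livers compared gave 53, 3 and 22. A pair of alternatives chosen after seeing the data left out replicate 3, which gave 2512, 1824 and 66 for those genotypes alone, and 911, 157, 61 and 80 with limma-voom. Other scaling, other filters on low counts, robust estimation and leaving out chromosomes X and Y gave 333 to 443, 18 to 21, 55 to 57 and 26 to 41. Leaving out each liver in turn gave 29 to 759 higher, 1 to 129 lower, 14 to 61 interferon-stimulated and 0 to 104 differing genes. The lowest counts of higher genes came without TNFR1KO replicate 1 (29) or 2 (37), and without WT replicate 2 there were 218. The highest came without Casp8 TNFR1 dKO replicate 3 (759) or Casp8 MLKL dKO replicate 1 (619). Without TNFR1KO replicate 1, 79 named genes lost their call, and without replicate 2, 75 did.

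The genotypes share replicate numbers, but nothing ties a number to a litter or day. Across genes, the deviations of same-numbered TNFR1KO and Casp8 TNFR1 dKO livers from their group means correlated at 0.102 for number 1 and -0.0672 for number 2. With the replicate number as a block the calls were 182 higher, 7 lower, 47 interferon-stimulated and 8 differing, and 175 of the 353 were kept. An exact permutation of 3 livers against 2 cannot reach the threshold, so single genes were tested only in fits across all genes. Genes at a few counts, such as the interferons, were below what this depth resolves.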

Other observations

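Few markers of T and NK cells, adrenal, kidney and lung passed the filter, and 6 of 10 skin markers did. Of 18 T and NK cell genes 7 were tested and 0 were called by edgeR, limma-voom or DESeq2 (1 by edgeR without replicate 3), with 1 at an unadjusted p under 0.05. Of 15 adrenal, kidney and lung genes 6 were tested and 0 called by edgeR or limma-voom, with 2 at an unadjusted p under 0.05, both lower, and 1 call by DESeq2. Of 10 skin genes 6 were tested and 0 called by edgeR or limma-voom, with 1 at an unadjusted p under 0.05 and 1 call by DESeq2. The 7 hemoglobin genes tested had a median log2 fold change of 0.92, and of -0.44 without Casp8 TNFR1 dKO replicate 3, with 0 calls by edgeR, limma-voom or DESeq2 and 0 at an unadjusted p under 0.05.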
